A study of Mus musculus with 12 samples.

Results

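RNA of mouse embryonic stem cells (mESCs) that had taken up 4-thiouridine (4sU) for 60 min was compared with RNA labeled for 15 min, to see which transcripts held a larger or smaller part of newly transcribed RNA as the pulse lengthened. The comparison rests on 4 of the 12 libraries of the series, which are 2 replicates of labeled RNA at each of these times. The 2 labeled libraries of 30 min served as the intermediate point, and the 6 libraries of total RNA from the same labeling times as controls. All cells were of the DTCM23/49 XY line, grown in serum with leukemia inhibitory factor on gelatin, and given 200 µM 4sU. One culture was split into 2 and passaged 8 times to give the biological replicates, so both share 1 origin. No genotype or drug treatment differed between groups, and a pull-down from cells without 4sU was not analysed here.

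4sU is a uridine analog that cells build into RNA while it is in the medium. Its sulfur atom allows labeled RNA to be biotinylated and drawn out on streptavidin beads. After a short pulse, labeled RNA is rich in precursors that still hold introns, and as the pulse continues these are spliced and mature mRNA builds up, while RNA that is degraded quickly reaches its plateau early. Introns are usually removed within minutes, and long-lived mRNAs, such as those of ribosomal proteins, go on accumulating label for hours.

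The deposited values are abundances per length, given separately for the exons and the introns of each transcript. They sum to nearly the same total in every library, between 19988830 and 19992902, so a value is a share of the labeled RNA of a library and not an amount per cell. A row that gains share can therefore do so without gaining RNA. Here the values of the transcripts of a gene were summed into 1 exonic and 1 intronic row per gene, and differences are given on the scale of log2(value + 1), which understates the change of rows of low value. Values of 1 or less are missing in the deposit and were taken as 0. Of the gene rows, 24522 had a mean of at least 20 over the 6 labeled libraries and were tested, 14237 exonic and 10285 intronic.

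The cells carried the transcripts of naive mESCs. All 11 naive markers in the table, among them Nanog, which maintains pluripotency, and Tdgf1, a Nodal co-receptor, had a median of 20 or more, and their summed level was 21095 to 34768 in labeled and 20620 to 30063 in total RNA. Of the 10 fibroblast markers, only Thy1 reached a median of 20 in labeled RNA, at 21.9 to 39.5, and the list summed to 23.9 to 42.4. Dcn, Lum, Postn and Col3a1 were listed at 0 in all 12 libraries. Of 11 markers of differentiated derivatives 2 reached that level, Nes and Pax6, and the list summed to 70.9 to 243. In bulk RNA such as this, fewer cells of a type and less RNA per cell cannot be told apart.

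The replicates of 15 and 60 min did not resemble each other, which bears on every result that follows. Intronic rows held 14.8% of the summed signal in replicate 1 and 7.24% in replicate 2 at 15 min, 9.35% and 10.8% at 30 min, and 13.9% and 6.99% at 60 min. The 6 total RNA libraries lay between 6.53% and 7.41%. Replicate 2 at both 15 and 60 min thus had the intronic share of total RNA, while replicate 1 at both times had about that share doubled. The first principal component over all 12 libraries, which held 36.7% of the variance, placed these 2 libraries at -28.0 and -32.7, the total RNA libraries at -65.5 to -29.3, replicate 1 of 15 and 60 min at 121 and 114, and the libraries of 30 min at 29.4 and 60.5. How much unlabeled RNA came through each pull-down was not tested. The intronic share averaged 11.0% ± 5.35 (SD, n = 2) at 15 min, 10.1% ± 1.00 (SD, n = 2) at 30 min and 10.5% ± 4.90 (SD, n = 2) at 60 min. The slope was -0.29 percentage points per doubling of the labeling time (exact permutation test over 90 arrangements of 6 libraries, two-sided p = 0.911, smallest possible p 0.0222), and it turned to 1.43 without replicate 1 of 15 min and to 1.10 without replicate 2 of 60 min.

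**Figure D1:**
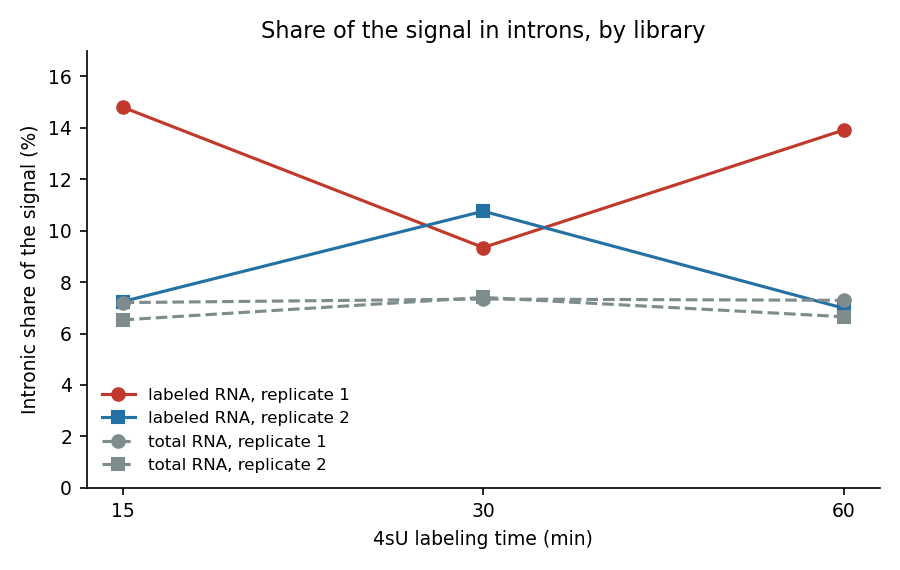
Percent of the summed deposited signal held by intronic rows (y axis) in each of the 12 libraries by labeling time in min (x axis), with labeled and total RNA and both replicates marked. Labeled replicate 1 lies at 14.8% and 13.9% at 15 and 60 min, while labeled replicate 2 at these times, at 7.24% and 6.99%, lies among the total RNA libraries.

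Across the whole transcriptome, few rows could be told apart between the labeling times. In the limma fit, 0 gene rows passed an adjusted p of 0.05 as higher at 60 min and 1 as lower (0.00408% of those tested), and 59 rows (0.241%) had an unadjusted p under 0.05, 50 of them exonic and 9 intronic. The median difference between 60 and 15 min was -0.09 for exonic and -0.03 for intronic rows. For exonic rows it was 0.20 within replicate 1 and -0.39 within replicate 2, and for intronic rows -0.06 and 0.00. Rows that were higher at 60 min in one replicate thus tended to be lower in the other, with a Spearman correlation of the changes within the replicates of -0.44 over exonic and -0.41 over intronic rows, as a description across genes. The same direction in both replicates was seen for 25.8% of exonic rows, of which 1425 (10.0% of all) were higher and 2243 (15.8%) lower at 60 min. For intronic rows this share was 35.1%, with 1384 (13.5%) higher and 2224 (21.6%) lower.

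The spread between replicates was the larger quantity. The median absolute difference between the replicates of 1 time was 0.45 at 15 min, 0.16 at 30 min and 0.57 at 60 min for exonic rows, and 1.43, 0.32 and 1.36 for intronic rows. The median absolute difference between the means of 60 and 15 min was 0.19 and 0.15. Both 60 min libraries were above both 15 min libraries for 602 exonic rows (4.23%) and 57 intronic rows (0.554%), and below them for 1114 (7.82%) and 191 (1.86%). A change of more than 2-fold in the same direction in both replicates was found for 29 higher and 30 lower exonic rows and for 1 higher and 9 lower intronic rows. With 30 min between the other times in value, 354 exonic rows stood in ascending and 743 in descending order of time without overlap, against 35 and 100 intronic rows. Neither step of the time course had more calls than the whole of it, with 0 rows called between 15 and 30 min (43 at an unadjusted p under 0.05 in limma) and 1 between 30 and 60 min (0.00408%).

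**Figure D2:**
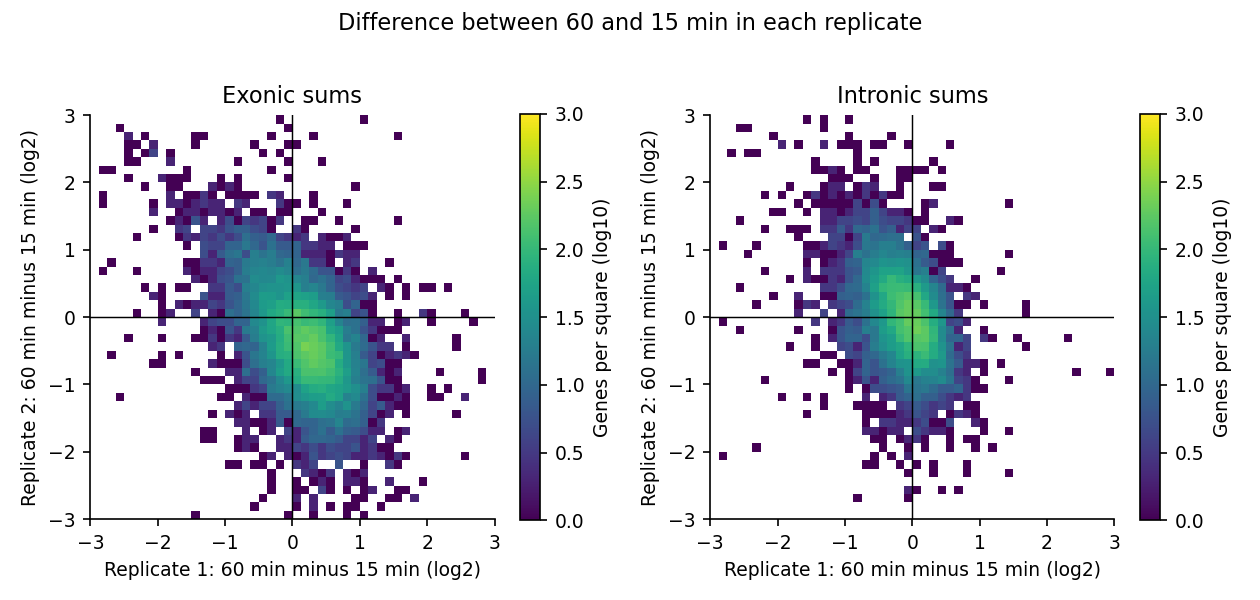
Difference in log2(value + 1) between 60 and 15 min within replicate 1 (x axis) and within replicate 2 (y axis) for the exonic and the intronic gene rows, shaded by the log10 of the number of rows. Of the rows, 13888 of 14237 exonic and 10236 of 10285 intronic rows lie inside the axes, and the cloud runs from upper left to lower right, with Spearman correlations of -0.44 and -0.41.

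The gene row that passed the test was the intronic row of Gm14127 (ENSMUSG00000082740), which is annotated as a pseudogene at chromosome 2 from 150469329 to 150470183 in GRCm38. It stood at 934 and 1066 at 15 min and 2394 and 722 at 30 min in replicates 1 and 2, and was listed at 0 in both libraries of 60 min. The fitted difference was -9.96 (SE 0.60, limma adjusted p = 0.0362). In total RNA it was listed at 0 in 5 of 6 libraries and at 256 in replicate 1 of 60 min, so it was present in the labeled libraries of the shorter pulses and in the total RNA of the longest one. The call was lost without any 1 of the 6 labeled libraries, with adjusted p between 0.114 and 0.450.

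Counting each transcript separately gave 5 called rows of 70621, all lower at 60 min (0.00708%), with 128 (0.181%) at an unadjusted p under 0.05 in limma. Gm14127 was 1 of them, and the other 4 were exonic rows of transcripts without a match in GENCODE M1, for which no gene is given here. ENSMUST00000200021 had values of 70024 and 40170 at 15 min and was missing from all labeled libraries of 30 and 60 min (limma adjusted p = 0.000844). In total RNA it was present at 219999 in replicate 2 of 15 min and at 59876 and 101942 at 30 min, and missing in the other 3 libraries. ENSMUST00000198477 was present in the same libraries, at 46459 and 25554 in labeled RNA of 15 min. Their presence or absence did not follow the division into labeled and total RNA. Without either library of 15 min, 0 transcript rows were called, and without either library of 60 min 3 were.

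Genes of small RNAs made up most of the other rows with the smallest p, and none of these passed the adjusted test, with an adjusted p of 1.00 in limma. They are annotated as snoRNAs, snRNAs and miRNA precursors of 76 to 135 nt, close to the read length of 100 nt, and belong to families with many copies among which reads may have been divided. SNORA41, of the box H/ACA class that guides pseudouridylation of rRNA, stood at 74.3 and 77.6 at 15 min, 83.2 and 85.9 at 30 min and 30.6 and 23.1 at 60 min, a difference of -1.48 (SE 0.43). AC150277.1, another snoRNA gene, was at 92.1 and 201 at 15 min, 103 and 79.8 at 30 min and 15.7 and 15.8 at 60 min. In total RNA the difference between 60 and 15 min was 2.58 for SNORA41 and -0.50 for AC150277.1. In labeled RNA of both, the libraries of 60 min lay below all 4 of the shorter pulses. SNORA22 went the other way, listed at 0 in both libraries of 15 min and at 36.8 and 51.1 at 30 min and 15.0 and 35.0 at 60 min, and in total RNA it was listed at 0 in 2 of 6 libraries. Of 1284 snoRNA genes with a row 238 passed the filter, with a median of -0.23 (0.00 in replicate 1 and -0.28 in replicate 2), and 7 (2.94%) did not overlap as higher and 26 (10.9%) as lower, against 4.23% and 7.82% of all exonic rows. For 142 of 1173 snRNA genes the median was -0.15, with 3 (2.11%) higher and 9 (6.34%) lower without overlap, both under the shares of all exonic rows.

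Among gene groups, the cytosolic ribosomal proteins showed exons and introns on opposite sides. These proteins form the ribosome, and their mRNAs are among the most abundant and stable in the cell, beginning with a run of pyrimidines (the 5′ TOP) through which mTOR signaling controls their translation. Bases -15 to +15 around the annotated start are given for the members, other than Rpl29, whose intronic rows were lower without overlap, since the exonic and intronic medians of the group lay on opposite sides of 0. Capitals mark CTTTC, a pyrimidine run searched on both strands, in RefSeq sequence of GRCm38.p6. Only this string was searched, anywhere in the window, and other pyrimidine runs are not marked. Its presence or absence therefore does not show whether a gene has a 5′ TOP.
Rpl7a, chr2:26910792-26910821, plus strand: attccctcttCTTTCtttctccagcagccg
Rps10, chr17:27635230-27635259, minus strand: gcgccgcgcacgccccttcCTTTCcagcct
Rps27, chr3:90213634-90213663, minus strand: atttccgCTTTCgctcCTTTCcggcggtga
Rpl10, chrX:74270801-74270830, plus strand: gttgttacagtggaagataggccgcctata
Rps2, chr17:24720048-24720077, plus strand: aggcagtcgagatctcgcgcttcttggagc
Rpl36a, chrX:134585639-134585668, plus strand: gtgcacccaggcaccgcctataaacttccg
Rpl37, chr15:5116598-5116627, plus strand: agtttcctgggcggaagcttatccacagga
Rps24, chr14:24490663-24490692, plus strand: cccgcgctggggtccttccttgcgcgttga
Rps24, a second annotated start, chr14:24490738-24490767, plus strand: tccggcgccgtagccatcatggtgagtctc
Of 64 ribosomal protein genes with a window, 17 (26.6%) held CTTTC on the sense strand and 3 (4.69%) on the antisense strand, against 4.76% and 4.22% of 27025 genes. Of the 8 genes shown, 3 held it on the sense strand.

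Ribosomal protein exons were higher at 60 min by a median of 0.13 over the 82 of 83 members that passed the filter, against -0.09 over all exonic rows. The group was at 0.15 within replicate 1 and 0.04 within replicate 2, against 0.20 and -0.39 over all exonic rows. It thus lay above all rows in replicate 2 only, and slightly below them in replicate 1. No member was called. The libraries did not overlap for 5 members as higher (6.10%, against 4.23% of all exonic rows) and 1 as lower (1.22%, against 7.82%). Their summed exonic share of the labeled signal was 4.64% and 5.59% at 15 min, 5.68% and 5.34% at 30 min and 5.17% and 6.24% at 60 min, ranges that overlap. The members with the highest exonic level were Rps18, Rpl10 and Rpl5, with differences of 0.24, -0.16 and 0.07. Rps12, a small-subunit protein, was at 6245 and 7263 at 15 min and 7287 and 10329 at 60 min, so that the lowest value of 60 min was just above the highest of 15 min. Rps27a, which is made as a fusion with ubiquitin, was at 14284 and 13907 at 15 min, 16409 and 16950 at 30 min and 14466 and 28198 at 60 min, and its difference of 0.52 (SE 0.32) came mainly from replicate 2. Reads of these exons can also belong to the many processed pseudogenes of the family, so single values are uncertain.

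The introns of the same genes were lower at 60 min. Their median over 79 members was -0.26, at -0.36 within replicate 1 and -0.11 within replicate 2, against -0.03 over all intronic rows. In both replicates 37 members were lower (46.8%, against 21.6% of all intronic rows) and 1 higher (1.27%, against 13.5%). The libraries did not overlap for 9 members as lower (11.4%, against 1.86%) and for 0 as higher, and again no member was called, with 2 at an unadjusted p under 0.05 in limma. The course was not steady, with a rise first and a fall after 30 min, at medians of 0.19 from 15 to 30 min and -0.47 from 30 to 60 min. In total RNA the median of the same rows was 0.17. Leaving out 1 library at a time moved the labeled median between -0.68 and 0.16, with values above 0 without replicate 1 of 15 min (0.16) and without replicate 2 of 60 min (0.01), while that of all intronic rows moved between -0.75 and 0.68. Relative to all intronic rows in the same settings the group ran from -0.61 to 0.20, so it was not below them in each. The exonic median of the group ran from -0.08 without replicate 1 of 15 min to 0.29.

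Rpl7a (ENSMUSG00000062647, chromosome 2 from 26910685 to 26913312), a large-subunit protein, had the intronic row of smallest p in the group. Its introns stood at 1128 and 1374 at 15 min, 1447 and 1474 at 30 min and 725 and 687 at 60 min, a difference of -0.82 (SE 0.27, limma unadjusted p = 0.0198, adjusted p = 1.00). Both 60 min values lay below all 4 values of the shorter pulses. Its exons were at 22934 and 28209 at 15 min and 25340 and 23731 at 60 min, so they were not higher. In total RNA the introns were at 163 to 209 at 15 min and 278 to 400 at 60 min. The introns of Rpl7a also hold snoRNA genes, whose reads the intronic row may include. Rpl10 (ENSMUSG00000008682, chromosome X from 74270816 to 74273135), a protein that joins the large subunit late in its assembly, had introns at 3873 and 3253 at 15 min, 4061 and 3842 at 30 min and 1984 and 2540 at 60 min, a difference of -0.66 (SE 0.25). Its exons, at 40243 and 55979 at 15 min and 49348 and 36459 at 60 min, overlapped between the times. The introns of Rps2 were at 873 and 418 at 15 min and 408 and 315 at 60 min, those of Rpl36a at 466 and 277 against 234 and 234, and those of Rps10 at 418 and 256 against 255 and 171, so in these the libraries of 60 min lay only just below the lower one of 15 min.

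Nuclear genes of the respiratory chain, whose subunits carry electrons and make ATP at the inner mitochondrial membrane, had the same arrangement. The exonic median over 79 of 82 members was 0.13, at 0.10 in replicate 1 and 0.22 in replicate 2. All exonic rows had 0.20 in replicate 1 and -0.39 in replicate 2, so this group too lay above them in replicate 2 only. The libraries did not overlap for 6 members as higher (7.59%, against 4.23% of all exonic rows) and 0 as lower (against 7.82%), and 18 (22.8%, against 10.0%) were higher and 0 (against 15.8%) lower in both replicates. Ndufa6, a subunit of complex I, was at 102 and 166 at 15 min, 160 and 173 at 30 min and 186 and 256 at 60 min, a difference of 0.74 (SE 0.41). Ndufs4, an assembly and accessory subunit of the same complex, was at 552 and 478 at 15 min and 637 and 639 at 60 min. Both replicates were thus higher at 60 min, but the spread of Ndufa6 at 15 min spanned most of its change. The 3 members of highest level, Atp5b, Cox7c and Atp5h, differed by -0.17, 0.30 and 0.38, with replicates on opposite sides.

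The introns of this group had a median of -0.24 over 68 members, -0.32 in replicate 1 and -0.25 in replicate 2, with 11 lower without overlap (16.2%, against 1.86% of all intronic rows) and 1 higher, Ndufc2 (1.47%, against 0.554%). Of the 68, 25 were lower (36.8%, against 21.6% of all intronic rows) and 2 higher (2.94%, against 13.5%) in both replicates. Uqcrb, a subunit of complex III, had introns at 156 and 108 at 15 min, 121 and 119 at 30 min and 101 and 50.5 at 60 min, a difference of -0.86 (SE 0.48). Its exons were at 555 and 794 at 15 min and 759 and 1048 at 60 min. Atp5h, a stalk subunit of ATP synthase, had introns at 299 and 311 at 15 min, 348 and 302 at 30 min and 220 and 236 at 60 min, with both values of 60 min below the other 4. None was called. The intronic median was 0.12 without replicate 1 of 15 min and without replicate 2 of 60 min, and at its lowest -0.63 without replicate 2 of 15 min. The median of all intronic rows was 0.68, 0.62 and -0.75 in these settings. Relative to all intronic rows the group ran from -0.56 to 0.20 with 1 library left out, so it was not below them in each setting. The exonic median ran from -0.02 without replicate 2 of 60 min to 0.30.

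Several other housekeeping groups had intronic medians below that of all rows, and none of their members was called. The introns of 5 snoRNA host genes, whose spliced introns give rise to snoRNAs, had a median of -0.43 (-0.53 and -0.89 in the replicates). It remained below 0 without any 1 library, at -0.70 to -0.16. Relative to the median of all intronic rows in the same settings it ran from -1.09 to 0.05, so it was not below all rows in each of them. Snhg3 introns were at 2727 and 2229 at 15 min, 2934 and 2675 at 30 min and 1835 and 1535 at 60 min, a difference of -0.55 (SE 0.26). Snhg9 introns were at 32.6 and 29.8 at 15 min and 10.2 and 12.4 at 60 min. In total RNA the difference between 60 and 15 min was 0.22 for Snhg3 introns and -2.20 for Snhg9 introns. Gas5, whose level is the highest of the hosts, had introns at 32655 and 33069 at 15 min and 44444 and 17820 at 60 min, so its replicates went opposite ways. The introns of 18 translation factors had a median of -0.29, those of 19 chaperones -0.23 and those of 33 proteasome subunits -0.14, with 1 (5.56%), 0 and 1 (3.03%) members lower without overlap, against 1.86% of all intronic rows, and 0 higher. With 1 library left out these medians ran from -0.91 to 0.37, from -0.86 to 0.46 and from -0.74 to 0.43, so their sign was not stable. Relative to the median of all intronic rows in the same settings they ran from -0.45 to -0.07, from -0.45 to 0.05 and from -0.31 to 0.02. Translation factor introns thus stayed below all rows in each of these settings, and the other groups did not. Chaperone introns were at 0.01 in replicate 1 and -0.28 in replicate 2. The exonic medians were -0.05 for translation factors, -0.04 for chaperones, 0.03 for proteasome subunits and 0.01 for snoRNA hosts, and the first 2 changed sign with the scaling. The introns of 14 glycolysis enzymes had a median of 0.04. The introns of 16 SR proteins and CLK kinases, regulators of splicing, had -0.30, at 0.02 in replicate 1 and -0.60 in replicate 2, and from -0.99 to 0.36 with 1 library left out. Tpt1, a translationally controlled growth protein grouped here with the translation factors, had introns at 970 and 756 at 15 min and 677 and 220 at 60 min and exons at 26981 and 28113 against 29680 and 30672. Its exonic values were close together and its intronic difference of -1.15 (SE 0.54) rested on replicate 2.

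**Figure D3:**
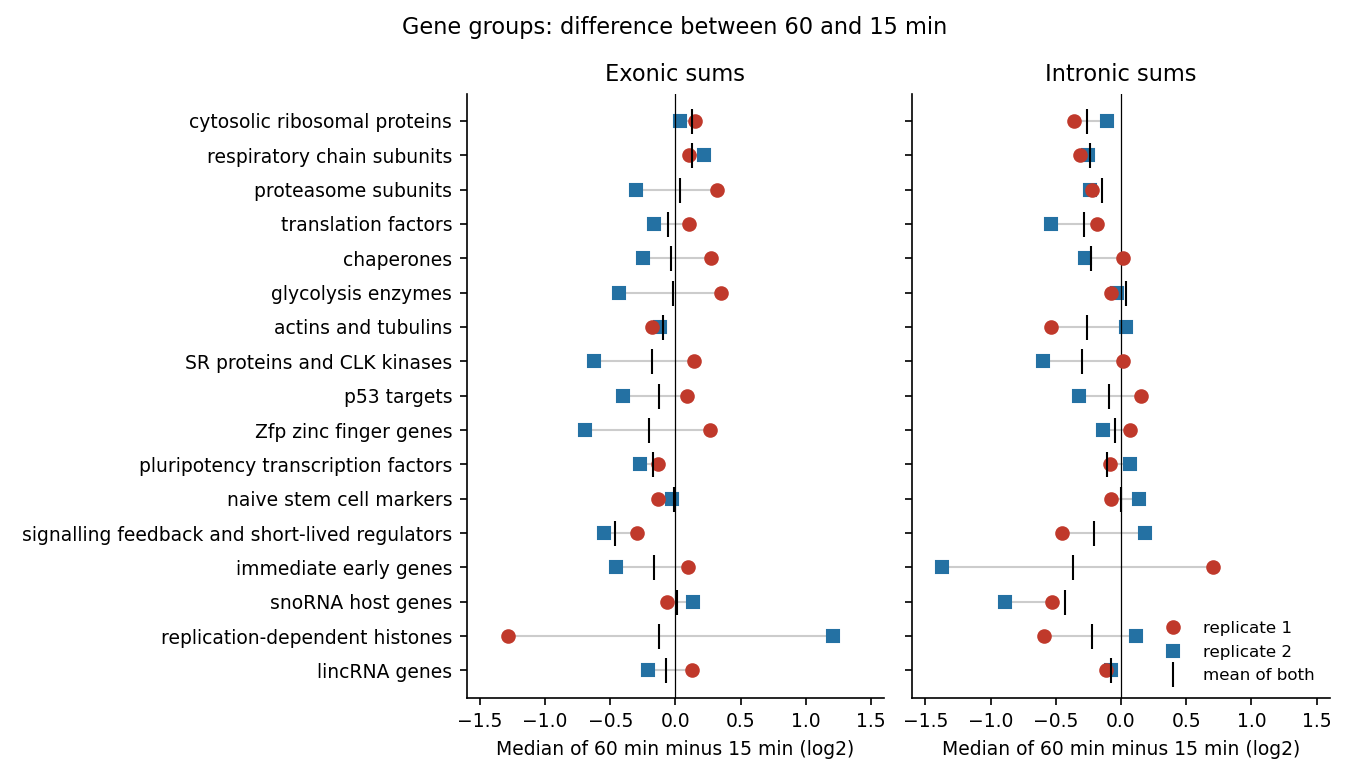
Median difference in log2(value + 1) between 60 and 15 min (x axis) for gene groups and kinds of row (y axis, exonic and intronic panels), within replicate 1 (circles) and replicate 2 (squares), with a black bar for the median of the mean of both replicates. Ribosomal protein and respiratory chain introns lie below 0 in both replicates (-0.36 and -0.11, and -0.32 and -0.25), while exons of replication-dependent histones lie at -1.28 and 1.21.

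The level of introns relative to exons of the same gene does not depend on the total of the library. Over 8517 genes with both rows, the median log2 ratio of introns to exons was -0.79, -1.76 and -1.05 at 15, 30 and 60 min in replicate 1 and -2.49, -1.46 and -2.08 in replicate 2, against -2.46 to -2.16 in total RNA. The ratio therefore had no common course in time, and in replicate 2 of 15 min it was as low as in total RNA. For 79 ribosomal protein genes the medians were -4.37, -4.92 and -5.08 in replicate 1 and -5.48, -4.79 and -5.75 in replicate 2, and in total RNA they were below -6. From 15 to 60 min the ratio was lower in both replicates for 36 of the 79 (45.6%) and higher in both for 0, against 1282 (15.1%) and 1146 (13.5%) of all genes. For 68 respiratory chain genes the medians were -2.51, -2.96 and -2.82 in replicate 1 and -3.21, -2.78 and -3.92 in replicate 2, with 28 (41.2%) lower and 1 higher in both. The same count was 9 of 19 chaperones (47.4%), 13 of 33 proteasome subunits (39.4%) and 7 of 18 translation factors (38.9%). It was also 5 of 8 actins and tubulins (62.5%, with 1 higher in both). Among pluripotency transcription factors it was 5 of 13 (38.5%, with 3 higher in both), so it was not limited to housekeeping groups. For 219 Zfp genes it was 21 (9.59%) and for 14 glycolysis enzymes 1 (7.14%), so not every group had it. No test was made of these ratios, which were chosen for description with the intronic differences known.

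**Figure D4:**
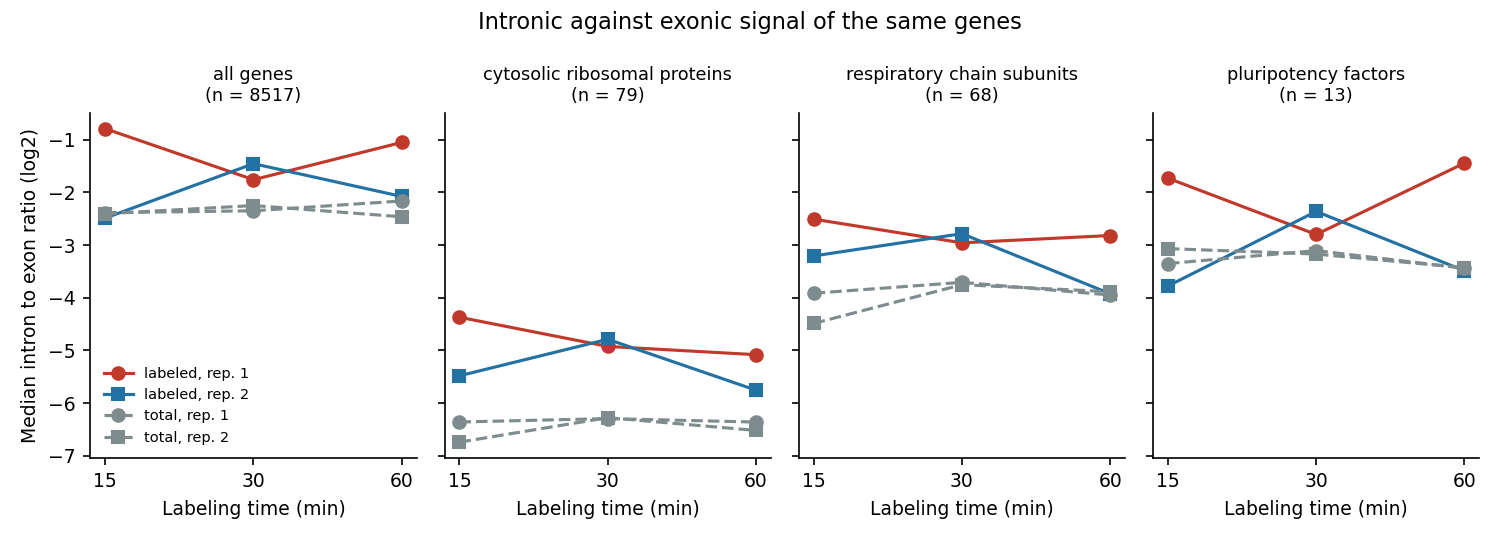
Median log2 ratio of intronic to exonic values (y axis) by labeling time in min (x axis) in labeled and total RNA of both replicates, for all 8517 genes, 79 ribosomal protein, 68 respiratory chain and 13 pluripotency genes. Replicates of labeled RNA are far apart for all genes at 15 min (-0.79 and -2.49), and both replicates of the ribosomal protein genes are lower at 60 than at 15 min.

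Transcripts known for rapid turnover did not give a common loss of share that exceeded the replicates. Immediate early genes, which respond within minutes to growth signals, had an exonic median of -0.16 over 14 of 23 members (0.09 in replicate 1 and -0.46 in replicate 2), with 1 (7.14%) higher and 3 (21.4%) lower without overlap, against 4.23% and 7.82% of all exonic rows, and a median of 0.03 without replicate 2 of 15 min. Ctgf, a matrix protein induced through YAP signaling, was at 60.4 and 92.5 at 15 min, 81.3 and 68.9 at 30 min and 36.8 and 42.7 at 60 min, and Cyr61, of the same family and pathway, was at 39.6 and 58.5 at 15 min and 23.8 and 36.7 at 60 min. Both matricellular genes were thus lower at 60 min in each replicate. Fos, a subunit of AP-1, was at 6.63 and 11.2 at 15 min, 26.5 and 32.5 at 30 min and 31.5 and 12.2 at 60 min, with the values of replicate 2 nearly alike at 15 and 60 min. Dusp1, Mcl1 and Klf10, the members of highest level, differed by 0.06, -0.21 and -0.34. In total RNA the difference between 60 and 15 min was 1.34 for Fos, 0.61 for Ctgf and -0.13 for Cyr61.

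Signaling feedback genes and short-lived regulators had an exonic median of -0.46 over 16 of 19 members, at -0.30 and -0.55 in the replicates. In both replicates 7 were lower (43.8%, against 15.8% of all exonic rows) and 3 higher (18.8%, against 10.0%). None was lower without overlap, against 7.82% of all exonic rows, and 1 (6.25%, against 4.23%), Lefty2, was higher, at 106 and 186 at 15 min and 194 and 192 at 60 min. Myc and Mycn, transcription factors of growth, stood at 145 and 350 against 90.7 and 192, and at 1112 and 2847 against 1133 and 1494. In each of them the replicates of 15 min differed by more than the means of the times. The group's median was -1.12 without replicate 1 of 15 min and 0.10 without replicate 2 of 15 min.

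Pluripotency transcription factors, which hold the stem cell state, had exonic values with a median of -0.17 over 16 members, with 2 (12.5%) lower and 1 (6.25%) higher without overlap, against 7.82% and 4.23% of all exonic rows, and a median of 0.15 without replicate 2 of 15 min. Nanog exons were at 3744 and 6389 at 15 min, 5809 and 6076 at 30 min and 2941 and 6522 at 60 min, which followed the replicate and not the time. Utf1, a chromatin factor of undifferentiated cells, was at 2251 and 2838 at 15 min, 2929 and 2661 at 30 min and 1682 and 2213 at 60 min. Prdm14, which represses differentiation genes, was at 41.2 and 70.6 at 15 min and 71.0 and 84.9 at 60 min. The introns of Sall4, a zinc finger partner of this network, were at 403 and 450 at 15 min, 335 and 345 at 30 min and 340 and 195 at 60 min. Naive markers as a whole had an exonic median of -0.01, whose sign changed with the scaling.

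The Zfp genes, a large family of mostly C2H2 zinc finger proteins, many of which bind and silence transposons through KRAB domains, had an exonic median of -0.21 over 274 of 340 members. It was 0.27 in replicate 1 and -0.69 in replicate 2, and 25 members (9.12%) were lower and 3 (1.09%) higher without overlap, against 7.82% and 4.23% of all exonic rows. Without replicate 2 of 15 min the median was 0.06. Zfp207, Zfp57 and Zfp600, the members of highest exonic level, differed by -0.39, -0.23 and -0.34. Replication-dependent histones, whose mRNAs lack a poly(A) tail and are made in S phase, had a median of -0.12 over 63 members but -1.28 in replicate 1 and 1.21 in replicate 2. Of them 0 were higher and 0 lower without overlap, against 4.23% and 7.82% of all exonic rows. At 60 min their summed exonic share was 0.0902% and 0.447% in labeled RNA of replicates 1 and 2, and 0.454% and 0.150% in total RNA. In labeled RNA single members differed between replicates as well. Hist1h2bn was at 2032 and 4153 at 15 min, 2542 and 2258 at 30 min and 1134 and 5108 at 60 min. The histone family shares near-identical coding sequence, so its rows are not independent.

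Long noncoding RNAs showed no common direction. Malat1, a nuclear RNA of splicing speckles, had exonic values of 90484 and 27208 at 15 min, 45635 and 55705 at 30 min and 49027 and 55567 at 60 min, a difference of 0.07 (SE 0.51). Its replicates at 15 min lay further apart than those of the other times. Neat1, the scaffold of paraspeckles, was at 361 and 164 at 15 min and 464 and 228 at 60 min, and Snhg12 at 3209 and 5517 against 3116 and 5088. LincRNAs had a median of -0.07 over 161 exonic and -0.08 over 189 intronic rows, and both signs changed with the scaling. Among the enhancer-associated lincRNAs (elincRNAs) listed by the study, 39 of 81 multi-exonic transcripts passed the filter, with an exonic median of -0.16 (-0.22 in replicate 1 and -0.14 in replicate 2), and 28 had an intronic median of -0.32 (-0.44 and -0.13). For 16 of 56 single-exonic transcripts the median was -0.27 (-0.33 and -0.23). All exonic transcript rows had -0.10, at 0.19 and -0.40, and all intronic transcript rows -0.06, at -0.04 and -0.10. No elincRNA row was called. Without overlap, 2 of 39 multi-exonic exonic rows and 1 of 16 single-exonic rows were lower, against 7.45% of all exonic transcript rows. Of the 28 intronic rows 2 were lower, against 1.96% of all intronic transcript rows. None of the elincRNA rows was higher, against 3.61% of exonic and 0.45% of intronic transcript rows. One transcript of Snhg12, ENSMUST00000137343, was at 119 and 242 at 15 min, 249 and 162 at 30 min and 110 and 106 at 60 min.

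For some protein-coding genes the libraries of the 2 times did not overlap, and examples are given, chosen after their values had been seen, since most rows of the naming rule were small RNAs. The coding rows of smallest unadjusted p are among them, and other rows were added for their level or known function. The introns of Hint2 (chromosome 4 from 43654227 to 43656445), a mitochondrial nucleotide hydrolase, were at 174 and 130 at 15 min, 42.4 and 42.3 at 30 min and 23.4 and 29.6 at 60 min, a difference of -2.47 (SE 0.44, limma unadjusted p = 0.00107, adjusted p = 1.00). The order of the 3 times was the same in both replicates, and in total RNA these introns were at 90.2 in replicate 1 of 60 min and below 8 in the other 5 libraries. Hint2 exons, at 652 and 460 at 15 min and 265 and 1122 at 60 min, went opposite ways. The introns of Tsen34, a subunit of the tRNA splicing endonuclease, were at 848 and 349 at 15 min, 216 and 253 at 30 min and 227 and 147 at 60 min, and at 346 in total RNA of replicate 1 at 15 min against 94.7 to 122 in the other 5. The high value of replicate 1 at 15 min was thus present in its total RNA as well. The introns of Lage3, a subunit of the KEOPS complex that modifies tRNA, were at 31.0 and 69.9 at 15 min, 40.5 and 35.1 at 30 min and 18.6 and 6.68 at 60 min, and those of Armcx2 at 137 and 48.5 at 15 min, 33.4 and 40.0 at 30 min and 29.3 and 25.1 at 60 min. In both, 1 library of 15 min stood well above the other 5.

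Among exons, Mtch2 (chromosome 2 from 90847090 to 90866810), an insertase of the outer mitochondrial membrane, was at 1690 and 1989 at 15 min, 2110 and 2354 at 30 min and 3003 and 2644 at 60 min, a difference of 0.62 (SE 0.25) with the values of the 3 times in order and without overlap. Tnni3 (chromosome 7 from 4518305 to 4522718), the cardiac troponin I that regulates muscle contraction, was at 199 and 197 at 15 min, 320 and 369 at 30 min and 360 and 335 at 60 min, a difference of 0.81 (SE 0.31), most of it before 30 min. In total RNA Tnni3 was at 96.1 to 225 at 15 min and at 221 to 222 at 60 min. Cyth1, an exchange factor for ARF GTPases, was at 13.6 and 16.9 at 15 min, 17.2 and 33.3 at 30 min and 42.1 and 48.4 at 60 min, a difference of 1.51 (SE 0.62). Its values of 60 min were the highest of the 6. Pttg1, the securin that restrains separase until anaphase, was at 3745 and 4468 at 15 min, 4707 and 5011 at 30 min and 4961 and 6487 at 60 min. Skp1a, an adaptor of SCF ubiquitin ligases, was at 6536 and 8045 at 15 min and 8354 and 10146 at 60 min.

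In the other direction, Rhob (chromosome 12 from 8497661 to 8500009), a GTPase encoded by 1 exon whose mRNA is known to turn over fast, was at 68.2 and 73.8 at 15 min, 61.8 and 58.0 at 30 min and 32.6 and 32.8 at 60 min, a difference of -1.09 (SE 0.43). Its replicates agreed at each time more closely than the times did. Thbs3, a thrombospondin of the extracellular matrix, was at 143 and 98.8 at 15 min, 72.2 and 88.3 at 30 min and 62.7 and 51.2 at 60 min. The exons of Ccdc28a were at 79.2 and 143 at 15 min, 84.3 and 59.8 at 30 min and 52.0 and 39.2 at 60 min. Fxyd5, a modulator of the sodium pump, was at 34.9 and 42.4 at 15 min, 57.9 and 75.8 at 30 min, and listed at 0 and at 16.4 at 60 min. Neither was in a steady order in both replicates. Tcf7l2, an effector of Wnt signaling, was at 614 and 918 at 15 min, 459 and 511 at 30 min and 389 and 490 at 60 min, and Hmga1, a chromatin architectural protein, at 2939 and 3620 against 2220 and 2506. Gapdh, the glycolytic enzyme, was at 89019 and 93903 at 15 min, 96075 and 93989 at 30 min and 77342 and 74403 at 60 min, and its difference of -0.27 (SE 0.14) was small but outside the spread of each pair. All of these genes had an adjusted p of 1.00 in limma.

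**Figure D5:**
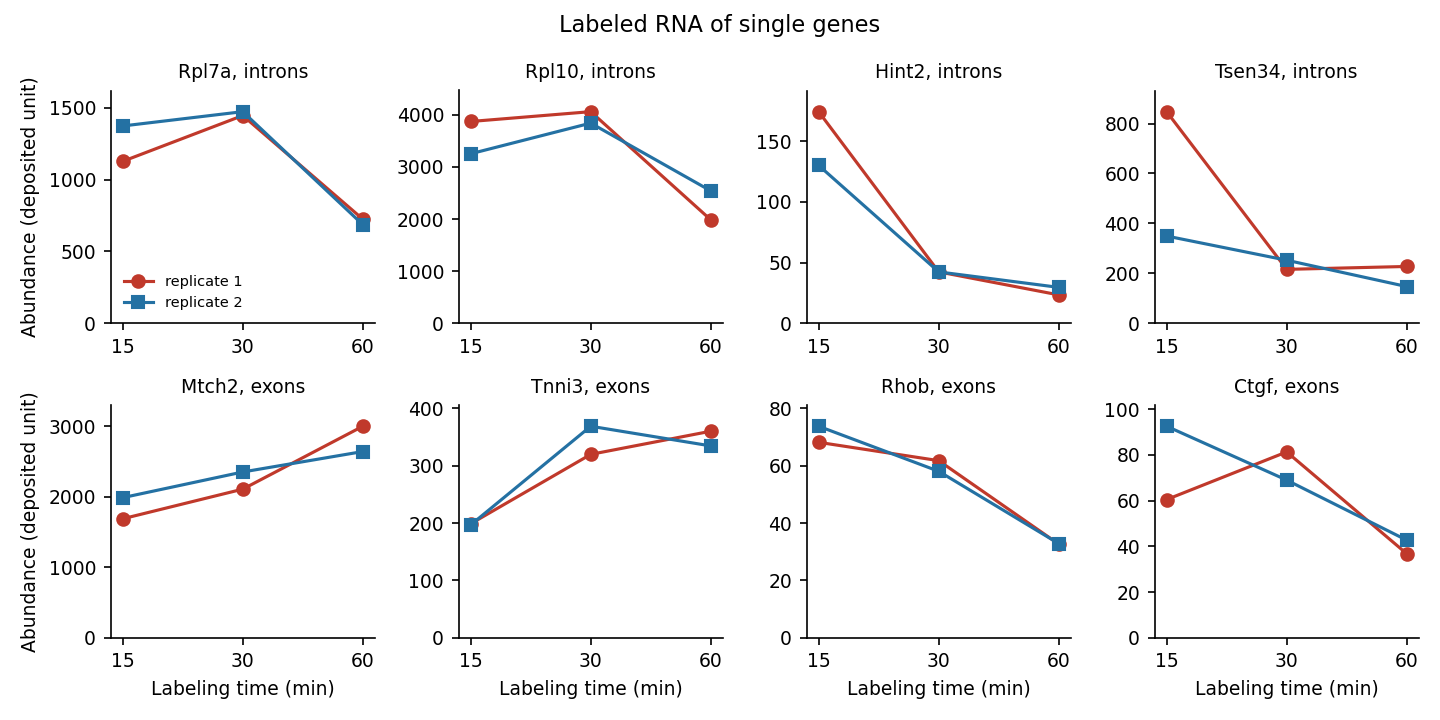
Deposited abundances in labeled RNA (y axes, linear and starting at 0) by labeling time in min (x axes) in replicate 1 (circles) and replicate 2 (squares), for introns of Rpl7a, Rpl10, Hint2 and Tsen34 and exons of Mtch2, Tnni3, Rhob and Ctgf. Both values of 60 min lie outside the 2 values of 15 min in each panel, as for Rhob, which stands at 68.2 and 73.8 at 15 min and 32.6 and 32.8 at 60 min.

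Genes were also divided by how strongly they were represented in labeled over total RNA at 30 min, libraries that the comparison of 60 with 15 min does not use. From the 2848 exonic rows with the lowest to the 2848 with the highest ratio, the median difference between 60 and 15 min was -0.14, -0.11, -0.08, -0.06 and -0.05. Within replicate 1 the medians of the lowest and highest bins were 0.31 and 0.01, and within replicate 2 they were -0.58 and -0.15. The small trend of the mean was thus the balance of opposite trends, with Spearman correlations over exonic rows of -0.21 in replicate 1 and 0.24 in replicate 2. For intronic rows the medians lay between -0.08 and -0.01, and the correlations were -0.40 and 0.19. The replicates also went apart with uridine content. In 5 bins of 2151 coding genes each, ordered by the uridine content of the most abundant transcript, with medians from 19.7% to 28.9%, the exonic median went from 0.08 to 0.33 in replicate 1 and from -0.23 to -0.59 in replicate 2. Over bins of length, with medians from 686 to 5223 nt, replicate 1 had no steady course, at 0.15, 0.25, 0.21, 0.21 and 0.22, while replicate 2 went from -0.21 to -0.49. These are descriptions across genes that share libraries and base composition.

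Total RNA of the same cells and times gave the comparison for change during the pulse itself. Its median difference between 60 and 15 min was -0.01 for exonic and 0.02 for intronic rows. In 1 limma fit over 23094 gene rows of all 12 libraries, 0 rows differed between labeled and total RNA in their change from 15 to 60 min in either direction (0.0%), and 206 had an unadjusted p under 0.05. The median of this difference was -0.07 over all rows, -0.48 over ribosomal protein introns, -0.56 over respiratory chain introns, -0.47 over translation factor introns, -0.63 over proteasome introns and -0.68 over snoRNA host introns. In total RNA the introns of these groups had medians above 0, at 0.17, 0.28, 0.11, 0.34 and 0.23, which for the respiratory chain and the proteasome is a larger value than that of labeled RNA. It was -1.67 for Rpl7a introns (limma unadjusted p = 0.000722) and -1.22 for Rpl10 introns (limma unadjusted p = 0.00178), neither of which passed the adjustment.

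With replicate 1 alone at 15 and 60 min, leaving out the 2 libraries with the intronic share of total RNA, limma called 107 gene rows (0.436%), 44 higher and 63 lower, and 453 transcript rows (0.641%), 167 higher and 286 lower. In that fit the spread comes from the 2 libraries of 30 min, the lone library of each other time is assumed to vary like them, and these vary least of all labeled pairs. The median exonic difference was then 0.20 in place of -0.09, and that of the respiratory chain introns -0.32. This setting was chosen after the data had been seen.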

How the data were processed

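Newly transcribed and total RNA of mESCs was measured at 3 labeling times with 2 replicates, giving 12 libraries prepared with Ovation RNA-Seq and sequenced as single-end reads of 100 nt. The authors removed rRNA reads with STAR 2.5.0, aligned the rest to exonic and intronic sequence and quantified them with RSEM. The submitters' processing notes name mm10. The deposited values were treated as signal, since they are abundances per length with a common total per library. How the authors scaled them, and strand, are not given in the sources used here, so overlapping and antisense genes cannot be told apart. Depth is unknown, and no counting error was computed.

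Transcripts were joined to genes through GENCODE M1 (83847 of 111672 Ensembl transcripts), and positions and promoter windows were taken from RefSeq on GRCm38.p6. limma 3.58.1 in R 4.3.3 was run on log2(value + 1) of rows with a mean of at least 20 in the 6 labeled libraries, with time as a factor and with a trend of the variance on the mean, and p-values were adjusted over all rows by the Benjamini-Hochberg method at 0.05. The script was tested on simulated data. Python 3.11.15, numpy 2.4.6, pandas 2.3.3, scipy 1.17.1 and matplotlib 3.10.9 were used for the rest.

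The alternatives were another pseudocount, other filters and scalings, a replicate block, other sets of libraries, a slope on time, no trend, and each library left out. Named genes were the 10 rows with the largest difference in each direction among called rows without overlap, filled by those of smallest p, the 3 members of highest exonic level in each gene group, Malat1, Neat1 and Snhg12, the marker genes and the called transcripts. Others named were chosen after their values were seen. The members and gene groups were chosen with earlier results of these data known. p-values measure the spread between libraries, which holds differences between single pull-downs and preparations as well as between cultures that share 1 origin.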

Additional observations from a re-analysis of the deposited data

How the results depend on the processing

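The single gene row called between 15 and 60 min gave way to 0 with a pseudocount of 20, with exonic and intronic totals rescaled, with only the 4 libraries of 15 and 60 min, with all 12 libraries in one fit, and with a slope on log2 minutes. It was also 0 among rows with values in all 6 labeled libraries, a filter that removes the called row, and the called transcripts, before the fit. It became 5 without the mean-variance trend, and 0 to 0 with each library left out. The 5 transcript rows became 3 with only the 4 libraries, 0 with all 12 libraries, 0 with the slope, 0 among rows with values in all 6 libraries and 14 without the trend, and 0 to 4 with each library left out. Without replicate 2 at 15 and 60 min, a setting added after seeing the data, 107 gene rows and 453 transcript rows were called. Between 30 and 60 min, 0 rows were called with a pseudocount of 20. For the difference between labeled and total RNA, 3 rows were called with a pseudocount of 20, and 0 to 5 with each library left out. The slope of the intronic share ran from -1.87 to 1.43 with each library left out, and turned to 1.43 and 1.10 without replicate 1 of 15 min and replicate 2 of 60 min. The cause of these shifts was not tested.

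Libraries of the same replicate number deviated together at 15 and 60 min (correlation of deviations 0.37), but not at 15 and 30 min (-0.21) or 30 and 60 min (-0.11). The main tests therefore did not pair the libraries of the 3 times by number. The changes given within a replicate, and the counts of rows with 1 direction in both replicates, do join libraries by number. They are descriptions that depend on this joining, while the counts without overlap do not. With the replicate block, 1 gene row and 5 transcript rows were called between 15 and 60 min, 0 between 15 and 30 min, 1 between 30 and 60 min and 0 in the comparison with total RNA, and the slope was -0.29 (exact permutation p = 0.833).

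Of 351 alternatives for single gene rows, 325 kept direction and side of the threshold, 12 lost the call, 14 gained one and 0 turned direction. Of 659 alternatives for group medians, 540 stayed within the spread between replicates, but 32 of 33 group medians had another sign in at least 1 setting, the exception being the introns of snoRNA hosts. These signs also follow shifts of all rows. Relative to all rows of the same kind, with 1 library left out, snoRNA host introns ran from -1.09 to 0.05. Translation factor introns ran from -0.45 to -0.07, proteasome exons from 0.01 to 0.26 and SR protein and CLK kinase exons from -0.21 to -0.03. Replicate spread, above all at 15 and 60 min, limits every comparison.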
